A study of Mus musculus with 18 samples.

Results

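The genes of the B cell survival cytokines BAFF and APRIL and of the plasma cell program were followed in the lacrimal gland (LG), the tear-secreting gland beside the eye. The 10 genes were picked by name from the 54232 genes of a bulk RNA-seq count table. They are the ligands Tnfsf13b (BAFF) and Tnfsf13 (APRIL), the receptors Tnfrsf13b (TACI), Tnfrsf13c (BAFF receptor) and Tnfrsf17 (BCMA), the regulators of transcription Prdm1, Irf4 and Pou2af1, the surface proteoglycan Sdc1 and the endoplasmic reticulum protein Mzb1. Whole LGs of 18 male mice were sequenced, 1 gland per mouse, with 3 mice in each of 6 groups. The control strain was BALB/cJ, written BALB/c here. The other strain was NOD.B10Sn-H2b/J (NOD.H-2b), a NOD-derived strain with an H2b MHC that serves as a model of Sjögren's syndrome. Both strains were sampled at 2 months (2M), 4M and 6M, no treatment is named for them, and the strains differ at many loci, so genetic background and disease cannot be told apart in the strain comparison. The totals ranged from 49480781 to 103936830 counts per mouse, and the deepest was BALB/c 6M replicate 1. Markers of the secretory gland were abundant, with Scgb2b7 alone at a mean of 50930 to 76331 counts per 1000000 (CPM) in the 6 groups, whereas the skeletal muscle list summed to 0.823 CPM or less and the adipocyte list to 3.45 CPM or less in the group means.

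BAFF is made mostly by myeloid and stromal cells and keeps mature B cells alive through the BAFF receptor, which feeds the alternative NF-kB pathway. APRIL binds TACI and BCMA, the latter a receptor of plasma cells, and TACI binds both ligands. Plasma cells arise when Irf4 and Prdm1 shut down the B cell program, and in exocrine glands most of them secrete IgA joined by the J chain, which the epithelium carries into tears. In a whole gland, fewer cells of a type and less RNA per cell cannot be told apart.

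Of the members, 2 shared sequence with another gene, which limits how their counts can be read. On the GENCODE M21 annotation of GRCm38, 983 of the 1637 exonic bases of Tnfsf13 (chr11:69682846-69685784, reverse strand) belonged also to the readthrough gene Tnfsfm13, and 221 to the antisense gene Tnfsf13os. For Mzb1 57.2% of the exonic bases were shared with a gene named SPATA24 on that annotation, which is not among the counted genes. The other 8 members had no exonic overlap. They were Tnfsf13b (chr8:10006467-10039072, forward strand), Tnfrsf13b (chr11:61126755-61149372, forward), Tnfrsf13c (chr15:82221743-82224369, reverse), Tnfrsf17 (chr16:11313812-11320074, forward), Prdm1 (chr10:44437177-44528501, reverse), Irf4 (chr13:30749226-30766976, forward), Pou2af1 (chr9:51213708-51240080, forward) and Sdc1 (chr12:8771323-8793715, forward).

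The promoters of 4 members are shown because they carry letters known from B cell and interferon regulated genes, and because these members were higher in NOD.H-2b glands at 1 or more ages. Promoter windows of 300 bases, from 250 before to 50 after each start, came from RefSeq (GRCm38.p6) for 9 of the 10 members, and 5 motifs were searched on both strands. The motifs were the octamer ATTTGCAT, its core ATTTGCA, the interferon response-like pair of GAAA and GAAA with any 2 bases between them, the NF-kB-like GGG and TTTCC with any 2 bases between, and the PU.1-IRF-like GGAA and GAAA with any 2 bases between, all chosen with the results in view, and the octamer holds its own core. The octamer core, whose bound factors Pou2af1 assists, was found 231 bases before the start of Pou2af1 itself on the opposite strand and 167 bases before that of Prdm1. It occurred in 4.02% of 32851 promoters and, counted by gene, in 4.56% of 27025 genes. The interferon response-like letters occurred 101 bases before the start of Tnfrsf17, on the opposite strand. They also occurred 16 bases before the more downstream of the 2 Tnfsf13b starts. Their share was 3.44% of all promoters and 3.99% of genes. The other 3 motifs had no match in these 9 members, and they occurred in 1.74%, 1.63% and 2.72% of promoters in the order octamer, NF-kB-like and PU.1-IRF-like. A match is a description of letters and not of binding. The 250 bases before the start follow for Pou2af1 (chr9:51213440-51213689, forward), Prdm1 (chr10:44458749-44458998, reverse, a start inside the annotated gene), Tnfrsf17 (chr16:11313559-11313808, forward) and Tnfsf13b (chr8:10006383-10006632, forward), with the matched letters in capitals.
Pou2af1: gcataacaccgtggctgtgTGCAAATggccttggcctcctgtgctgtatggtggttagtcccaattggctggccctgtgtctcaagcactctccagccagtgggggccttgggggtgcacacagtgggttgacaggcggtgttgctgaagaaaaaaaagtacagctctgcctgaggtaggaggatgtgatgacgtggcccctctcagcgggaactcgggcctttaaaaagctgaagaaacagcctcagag
Prdm1: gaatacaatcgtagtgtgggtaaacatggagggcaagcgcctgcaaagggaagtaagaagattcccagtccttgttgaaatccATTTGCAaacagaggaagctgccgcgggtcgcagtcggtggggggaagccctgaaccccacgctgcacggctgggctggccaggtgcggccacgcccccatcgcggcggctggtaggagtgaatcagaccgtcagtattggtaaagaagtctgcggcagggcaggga
Tnfrsf17: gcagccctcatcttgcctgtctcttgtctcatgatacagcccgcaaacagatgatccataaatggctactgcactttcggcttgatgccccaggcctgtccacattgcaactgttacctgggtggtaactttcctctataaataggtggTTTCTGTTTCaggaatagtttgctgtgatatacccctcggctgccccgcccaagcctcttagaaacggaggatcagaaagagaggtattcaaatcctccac
Tnfsf13b: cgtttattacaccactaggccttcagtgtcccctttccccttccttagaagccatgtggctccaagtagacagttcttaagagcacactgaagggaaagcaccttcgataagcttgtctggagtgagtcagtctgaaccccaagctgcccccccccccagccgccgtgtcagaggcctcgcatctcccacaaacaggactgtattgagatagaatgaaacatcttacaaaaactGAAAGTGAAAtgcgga

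Most members were upregulated in NOD.H-2b LGs, and neither Sdc1 nor Tnfsf13 was called higher at any age. A gene is called a DEG here when edgeR's quasi-likelihood test gave a Benjamini-Hochberg false discovery rate (FDR) under 0.05 over all genes tested and the fold change was at least 2. At 2M, 4 of the 9 members tested were DEGs, all higher in NOD.H-2b, where 12.0% of all genes tested were called higher. Those 4 were Tnfsf13b, Tnfrsf13b, Irf4 and Pou2af1. Tnfrsf13c failed the filter on low counts at that age. Tnfrsf13b (14, 10 and 8 counts in BALB/c) and Pou2af1 (2, 15 and 18) passed it there only with the NOD.H-2b mice, where they are higher. At 4M, 8 of 10 were DEGs, all higher, against 15.6% of genes. At 6M, 6 of 10 were DEGs, all higher, against 18.8% of genes, and Tnfrsf17 and Prdm1 passed the FDR below 2-fold. Averaged over the 3 ages in a fit of all 18 mice, 7 of 10 were DEGs, all higher, against 17.6% of genes, and Prdm1 passed the FDR at a log2 fold change of 0.94. The median log2 fold change of the members tested was 1.47, 2.20 and 2.40 at 2M, 4M and 6M, and that of all genes was 0.01, 0.00 and -0.00. Tnfrsf13c is in the counts at 4M and 6M and in the average, but it passed the filter there through NOD.H-2b alone and so had to differ. Without NOD.H-2b 2M replicate 1, Prdm1 and Mzb1 were DEGs at 2M as well. The count of that fit is 7 because Tnfrsf13c then passed the filter too, again through NOD.H-2b alone.

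**Figure D1:**
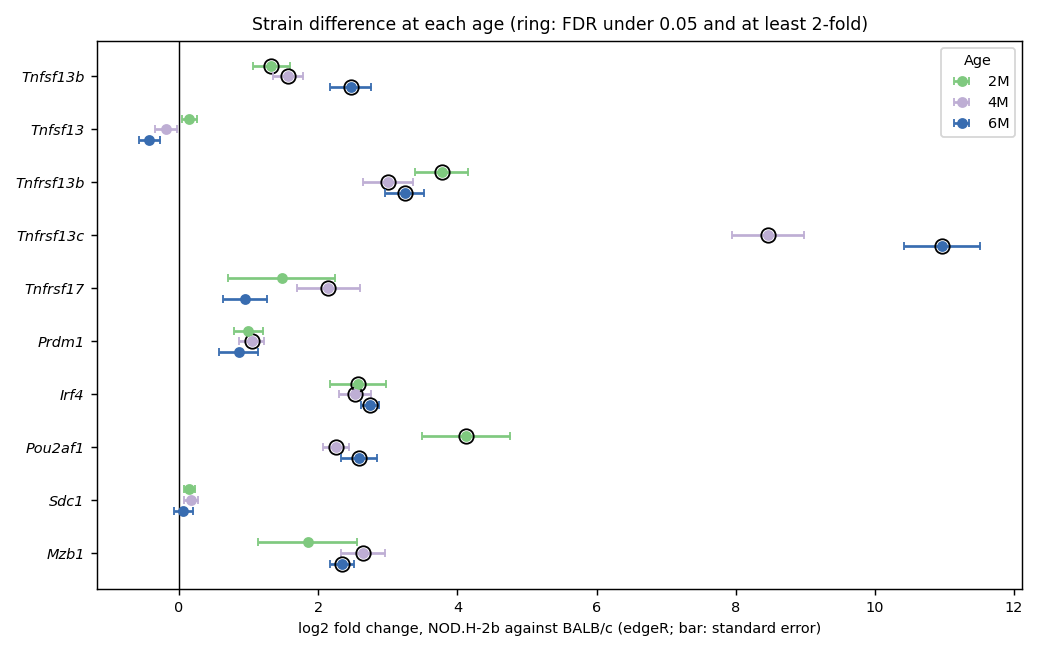
The log2 fold change of NOD.H-2b against BALB/c is plotted for each gene at 2M, 4M and 6M, with bars for the standard error of edgeR's fit and rings for DEGs, and 3 mice stand behind each group. Sdc1 and Tnfsf13 sit near 0 and the other genes to the right. The Tnfrsf13c points depend on BALB/c groups of 4 counts or fewer, and it has no 2M value because it failed the filter on low counts.

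The 2 ligands behaved differently. Tnfsf13b, which encodes BAFF, was measured in BALB/c glands at 0.631, 0.826 and 0.582 CPM at 2M, 1.12, 0.853 and 0.924 at 4M, and 0.687, 0.660 and 0.374 at 6M in the 3 mice of each age. In NOD.H-2b glands it was at 1.25, 1.74 and 1.98 CPM at 2M, 3.33, 2.59 and 2.66 at 4M, and 4.30, 2.46 and 2.72 at 6M. The NOD.H-2b mice lay above the BALB/c mice at each age without overlap. At 2M the log2 fold change was 1.33 (SE 0.27, FDR 0.00210), at 4M 1.57 (SE 0.22, FDR 0.000337) and at 6M 2.46 (SE 0.30, FDR 8.71e-05). In the order of the group means, BALB/c 6M and 2M came lowest with overlapping ranges, followed by BALB/c 4M and NOD.H-2b 2M, and NOD.H-2b 4M and 6M came highest with overlapping ranges. Over all members, the 3 NOD.H-2b mice lay above the 3 BALB/c mice for 5 of the 9 genes tested at 2M, where this was so for 25.3% of genes tested, for 8 of 10 at 4M (28.4%) and for 8 of 10 at 6M (31.2%). These counts include Tnfrsf13b and Pou2af1 at 2M and Tnfrsf13c at 4M and 6M. Those passed the filter on low counts there only through NOD.H-2b, which favoured such a gap in advance.

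Tnfsf13, which encodes APRIL, was the more abundant ligand and showed no such rise. It stood at 6.59, 6.95 and 6.91 CPM at 2M, 9.10, 8.55 and 6.83 at 4M, and 7.13, 8.09 and 7.34 at 6M in BALB/c. In NOD.H-2b it stood at 6.46, 7.32 and 8.20 CPM at 2M, 5.86, 7.41 and 8.09 at 4M, and 4.43, 5.90 and 6.06 at 6M. In TMM-scaled CPM the strains overlapped at 2M and 4M, and at 6M the 3 NOD.H-2b mice lay below the 3 BALB/c mice, as 33.4% of genes tested did. The log2 fold change at 6M was -0.43 (SE 0.14, FDR 0.0303), short of 2-fold. These results rested on the scaling. Without the TMM factors, which moved the median of all genes by 0.38 on the log2 scale at 6M, the log2 fold change at that age was -0.05 with an FDR of 0.775. At 2M it was then 0.33 with an FDR of 0.0245, and the strains did not overlap, with 6.04 to 6.42 CPM in BALB/c against 6.93 to 8.81 CPM in NOD.H-2b. Reads of the overlapping genes were counted too. Tnfsfm13 lay between 0.841 and 1.23 CPM in the group means of both strains. Tnfsf13os, chosen after its values were seen, was at 2.33, 3.41 and 2.96 CPM at 2M, 3.26, 3.82 and 3.13 at 4M, and 3.54, 3.43 and 3.11 at 6M in BALB/c. In NOD.H-2b it was at 1.20, 0.654 and 0.786 CPM at 2M, 0.847, 0.927 and 0.520 at 4M, and 0.692, 0.734 and 0.456 at 6M, below every BALB/c mouse. By its name the library kit does not mark strand, and no strand setting is given, so reads of Tnfsf13 and its antisense gene cannot be told apart where they overlap.

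**Figure D2:**
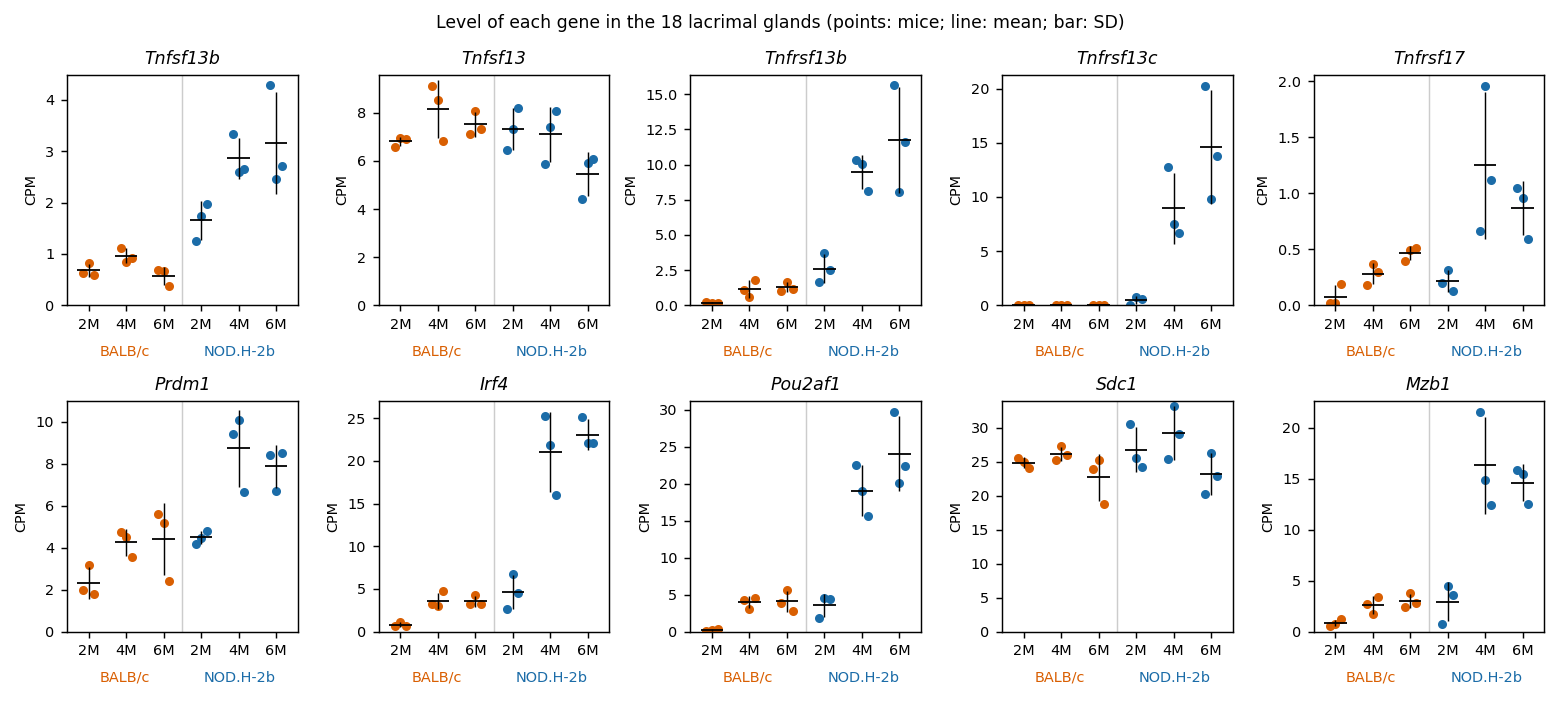
Each panel gives 1 gene in CPM (counts per 1000000 of the library scaled with TMM factors), with 1 point per mouse, a line for the mean of 3 mice and a bar for the SD, in BALB/c and NOD.H-2b at 2M, 4M and 6M. Tnfrsf13c is at or near 0 in all BALB/c mice and reaches 20.3 CPM in NOD.H-2b 6M, and the vertical scale differs between panels.

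Tnfrsf13c encodes the BAFF receptor of mature B cells, which takes up BAFF only. Its counts in BALB/c glands were 0, 0 and 0 at 2M, 0, 1 and 3 at 4M, and 1, 0 and 0 at 6M. Its counts in NOD.H-2b glands were 4, 53 and 40 at 2M, 841, 486 and 333 at 4M, and 1553, 563 and 784 at 6M, which is 0.0656, 0.807 and 0.629 CPM at 2M, 12.7, 7.51 and 6.67 at 4M, and 20.3, 9.84 and 13.7 at 6M. The strains did not overlap at any age, although NOD.H-2b 2M replicate 1 with 4 counts was close to the highest BALB/c mouse of any age, with 3. At 2M all BALB/c libraries were at 0, and against a floor of 3 counts per library NOD.H-2b was at least 9.15-fold higher. From the summed counts the ratio was 392 at 4M (95% interval 153 to 1439) and 2779 at 6M (498 to 109809). These exact binomial intervals cover counting error only. At 4M BALB/c replicate 3 held 3 of the 4 counts of its group, and without that mouse the fitted log2 difference went from 8.47 to 9.56. At 6M the only BALB/c count came from replicate 1, and without that mouse all BALB/c libraries were at 0.

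Tnfrsf13b encodes TACI, a receptor for both ligands on B cells and some plasma cells. In BALB/c it was at 0.267, 0.179 and 0.141 CPM at 2M, 1.12, 0.569 and 1.80 at 4M, and 1.04, 1.68 and 1.15 at 6M. The NOD.H-2b values were 1.62, 3.71 and 2.48 CPM at 2M, 10.3, 10.0 and 8.09 at 4M, and 15.6, 8.04 and 11.6 at 6M. Every NOD.H-2b mouse exceeded all BALB/c mice of its age. The log2 fold change was 3.77 (SE 0.38, FDR 2.08e-05) at 2M, 3.00 (SE 0.36, FDR 0.000638) at 4M and 3.24 (SE 0.28, FDR 2.22e-05) at 6M. BALB/c was not silent for this receptor after 2M, and the range of its 6M group overlapped that of BALB/c 4M below it and that of NOD.H-2b 2M above it.

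Tnfrsf17 encodes BCMA, the receptor of plasma cells, and its counts were low throughout. The counts were 1, 1 and 11 at 2M, 10, 18 and 20 at 4M, and 37, 23 and 22 at 6M in BALB/c. They were 12, 21 and 8 at 2M, 44, 127 and 56 at 4M, and 80, 55 and 34 at 6M in NOD.H-2b. In CPM the strains overlapped at 2M and were apart at 4M and 6M. At 6M, where the counts themselves overlapped, the BALB/c mice held 0.397, 0.490 and 0.514 CPM against 1.04, 0.961 and 0.596 CPM in NOD.H-2b. The log2 fold change was 1.47 (SE 0.77, FDR 0.155) at 2M, 2.15 (SE 0.45, FDR 0.00370) at 4M and 0.95 (SE 0.32, FDR 0.0289) at 6M, so only the 4M value met both criteria. The 6M value met them without BALB/c replicate 3 (1.01, FDR 0.0402), without NOD.H-2b replicate 3 (1.16, FDR 0.0168) and without the TMM factors (1.34, FDR 0.00806). The 2M value depended on BALB/c replicate 3, which held 11 of the 13 counts of its group. Without that mouse the log2 fold change was 3.43 with an FDR of 0.0151. In that fit BALB/c 2M held 1 and 1 counts, so Tnfrsf17 passed the filter on low counts through NOD.H-2b alone. In the order of the means the NOD.H-2b 2M range overlapped those of BALB/c 2M and BALB/c 4M.

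The 3 regulators of transcription are Irf4, Pou2af1 and Prdm1. Irf4, needed for the step from B cell to plasma cell, was at 0.611, 1.13 and 0.670 CPM at 2M, 3.28, 2.95 and 4.71 at 4M, and 3.19, 4.26 and 3.18 at 6M in BALB/c. In NOD.H-2b it was at 2.71, 6.73 and 4.50 CPM at 2M, 25.3, 21.9 and 16.0 at 4M, and 25.2, 22.0 and 22.0 at 6M. The strains did not overlap at any age, although the range of NOD.H-2b 2M overlapped that of BALB/c 4M. Its log2 fold change was 2.57 (SE 0.40, FDR 0.00172) at 2M, 2.53 (SE 0.23, FDR 0.000139) at 4M and 2.75 (SE 0.13, FDR 3.17e-07) at 6M.

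Pou2af1 encodes OCA-B, the B cell coactivator of octamer-binding factors. It was at 0.0382, 0.269 and 0.317 CPM at 2M, 4.33, 3.07 and 4.59 at 4M, and 3.81, 5.64 and 2.85 at 6M in BALB/c. NOD.H-2b glands held 1.79, 4.55 and 4.43 CPM at 2M, 22.6, 19.1 and 15.6 at 4M, and 29.8, 20.1 and 22.5 at 6M. The strains did not overlap at any age. This was a log2 fold change of 4.12 (SE 0.63, FDR 0.00237) at 2M, 2.26 (SE 0.19, FDR 3.38e-05) at 4M and 2.59 (SE 0.26, FDR 0.000121) at 6M. The ranges of BALB/c 4M and 6M overlapped that of NOD.H-2b 2M.

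Prdm1 encodes Blimp-1, the repressor that fixes the plasma cell state. It was at 1.97, 3.19 and 1.78 CPM at 2M, 4.75, 4.51 and 3.53 at 4M, and 5.59, 5.20 and 2.43 at 6M in BALB/c. The NOD.H-2b values were 4.18, 4.47 and 4.81 CPM at 2M, 9.41, 10.1 and 6.67 at 4M, and 8.42, 6.71 and 8.52 at 6M. The strains did not overlap at any age, but the differences lay at the 2-fold limit. On the log2 scale NOD.H-2b was higher by 0.998 (SE 0.21, FDR 0.00282) at 2M, 1.04 (SE 0.18, FDR 0.00133) at 4M and 0.86 (SE 0.28, FDR 0.0305) at 6M. Only the 4M value met it, and single mice moved the call both ways. Leaving out BALB/c replicate 3 or NOD.H-2b replicate 1 or 2 of 4M took it below 2-fold, with values of 0.92, 0.99 and 0.93. The 2M value was called without BALB/c replicate 2 (1.30) or NOD.H-2b replicate 1 (1.04), and the 6M value without BALB/c replicate 1 (1.07). Without the TMM factors the 2M and 6M values, 1.18 and 1.25, were also called.

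The 2 remaining plasma cell markers went apart. Mzb1, a chaperone of antibody-secreting cells and of some B cell subsets, was at 0.554, 0.772 and 1.20 CPM at 2M, 2.71, 1.71 and 3.40 at 4M, and 2.43, 3.75 and 2.78 at 6M in BALB/c. In NOD.H-2b it was at 0.771, 4.44 and 3.63 CPM at 2M, 21.6, 14.9 and 12.5 at 4M, and 15.8, 15.5 and 12.5 at 6M. The strains overlapped at 2M through NOD.H-2b replicate 1 and were apart at 4M and 6M. Its log2 fold change was 1.85 (SE 0.71, FDR 0.0975) at 2M, 2.64 (SE 0.31, FDR 0.000758) at 4M and 2.34 (SE 0.17, FDR 3.07e-06) at 6M. Without NOD.H-2b replicate 1 the 2M value was 2.29 with an FDR of 3.79e-05. The 2M value was also called in 1 fit of all 18 mice, with an FDR of 0.0165, and by DESeq2, with an adjusted p of 0.0469.

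Sdc1 encodes syndecan-1 (CD138), the usual surface mark of plasma cells, which epithelial cells also carry. It ranged from 18.8 to 27.3 CPM over the 9 BALB/c mice and from 20.2 to 33.2 CPM over the 9 NOD.H-2b mice, and the strains overlapped at each age. On the log2 scale the strains differed by 0.15 (SE 0.08, FDR 0.169) at 2M, 0.17 (SE 0.10, FDR 0.220) at 4M and 0.06 (SE 0.13, FDR 0.718) at 6M. Without the TMM factors it was 0.34, 0.31 and 0.44, each with an FDR under 0.05, where the median gene moved to 0.20, 0.15 and 0.38. Per kilobase of exon, Sdc1 was the most abundant member in BALB/c at each age, with a mean of 6.52 ± 0.209 CPM per kb at 2M (SD, n = 3). In NOD.H-2b at 4M and 6M Mzb1 was, with 13.4 ± 3.89 and 12.0 ± 1.49 CPM per kb. Tnfsf13b was the least abundant member per kilobase in all 3 NOD.H-2b groups, with 0.460 ± 0.145 CPM per kb at 6M, and Tnfsf13 stood at 3.34 ± 0.551 there. These lengths hold all exonic bases, also those shared with other genes, 983 of 1637 for Tnfsf13 and 57.2% for Mzb1. How reads on shared bases were counted is not given. The per-kilobase values of Tnfsf13 and Mzb1, and their order against Sdc1, thus depend on this choice of length.

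In the age comparison, the question was when within each strain these genes moved. Members were called between 2M and 4M in both strains and from 4M to 6M in neither. In BALB/c, 4 of 9 members tested rose from 2M to 4M where 2.07% of genes rose, namely Tnfrsf13b, Irf4, Pou2af1 and Mzb1. Of these, Tnfrsf13b (14, 10 and 8 counts at 2M) and Pou2af1 (2, 15 and 18) passed the filter on low counts only with the 4M mice. Prdm1 passed the FDR below 2-fold (0.88, SE 0.22, FDR 0.0238). It was called without 2M replicate 2 (1.18) or 4M replicate 3 (1.00). Tnfrsf17 (1, 1 and 11 counts at 2M) also passed the filter only with the older mice, from 2M to 4M and from 2M to 6M. It had 1.82 (SE 0.71, FDR 0.121) from 2M to 4M. Without 2M replicate 3, which left 1 and 1 counts at 2M, it had 3.78 (FDR 0.0229). From 2M to 6M the same 4 as from 2M to 4M rose against 1.57% of genes, Tnfrsf13b and Pou2af1 passing the filter only with the 6M mice. Prdm1 had 0.94 (SE 0.36, FDR 0.196) there, and 1.21 (FDR 0.00495) without 6M replicate 3. Tnfrsf17, with 2.52 (SE 0.67, FDR 0.0501) from 2M to 6M, was called by DESeq2 (adjusted p = 0.0143), in 1 fit of all 18 mice (FDR 0.0312), without the filter on low counts (FDR 0.000740) and without 6M replicate 3 (FDR 0.0393). Without 2M replicate 3, with 1 and 1 counts left at 2M, it was called at 4.49 (FDR 0.0105), a value given as a description. The largest of the 4 was Pou2af1, with 4.23 (SE 0.42, FDR 0.000501) from 2M to 4M and 4.26 (SE 0.50, FDR 0.00393) from 2M to 6M. Mzb1 changed by 1.63 (SE 0.31, FDR 0.00787) from 2M to 4M, a call lost without BALB/c 2M replicate 2 (FDR 0.0543). In 1 fit of all 18 mice the Mzb1 calls were lost from 2M to 4M (FDR 0.104) and from 2M to 6M (FDR 0.0906). For Tnfsf13b the BALB/c value was 0.51 (SE 0.28, FDR 0.269) from 2M to 4M.

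In NOD.H-2b, 5 of 10 members rose from 2M to 4M against 5.97% of genes. They were Tnfrsf13b (1.86, SE 0.29), Tnfrsf13c (4.15, SE 0.72), Tnfrsf17 (2.53, SE 0.49), Irf4 (2.18, SE 0.37) and Pou2af1 (2.41, SE 0.39), with FDRs from 0.0112 to 0.0250. Tnfrsf13c (4, 53 and 40 counts at 2M) and Tnfrsf17 (12, 21 and 8) passed the filter on low counts only with the 4M mice, where they are higher. The rise of Tnfrsf13c, which failed that filter at 2M between strains, is a description. Mzb1 had 2.47 (SE 0.65, FDR 0.0651). Fewer members and fewer genes of all were called with some mice left out. Without NOD.H-2b 2M replicate 3, 1 member (Prdm1, which is not among the 5) and 229 of all genes rose, without 4M replicate 1 it was 2 and 545, and without 4M replicate 2 it was 3 and 682, against 1061 genes with all mice. The members of the 5 that were not called in those fits had log2 fold changes of 1.82 to 4.33 there, with FDRs of 0.0560 to 0.106. From 2M to 6M 6 members rose against 10.9% of genes, the same 5 and Mzb1. Tnfrsf13c and Tnfrsf17 again passed the filter only with the older mice, here those of 6M. Mzb1 changed by 2.28 (SE 0.63, FDR 0.0451), and this call was lost in 5 of the 6 fits that left out 1 mouse, all but that without NOD.H-2b 2M replicate 1, and without the filter on low counts (FDR 0.0893). Prdm1 passed the FDR below 2-fold, with 0.79 (SE 0.13, FDR 0.00210), and so did Tnfsf13b, with 0.92 (SE 0.26, FDR 0.0206). The Tnfsf13b value was called without 2M replicate 3 (1.08), 6M replicate 2 (1.07) or 6M replicate 3 (1.02) and without the TMM factors (1.11). Tnfsf13 passed the FDR in the other direction, with -0.44 (SE 0.15, FDR 0.0431), but not without the TMM factors (-0.29, FDR 0.149). From 4M to 6M no member was a DEG in either strain by edgeR or by DESeq2, where 0.0180% of genes were called higher in BALB/c against 0.00555% in NOD.H-2b. At an unadjusted p under 0.05, the 4M to 6M comparison held Tnfsf13b in BALB/c (-0.74) and Sdc1 in NOD.H-2b (-0.32), 1 member in each, where 2583 of 16622 genes tested in BALB/c and 2490 of 18026 in NOD.H-2b had such a p.

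**Figure D3:**
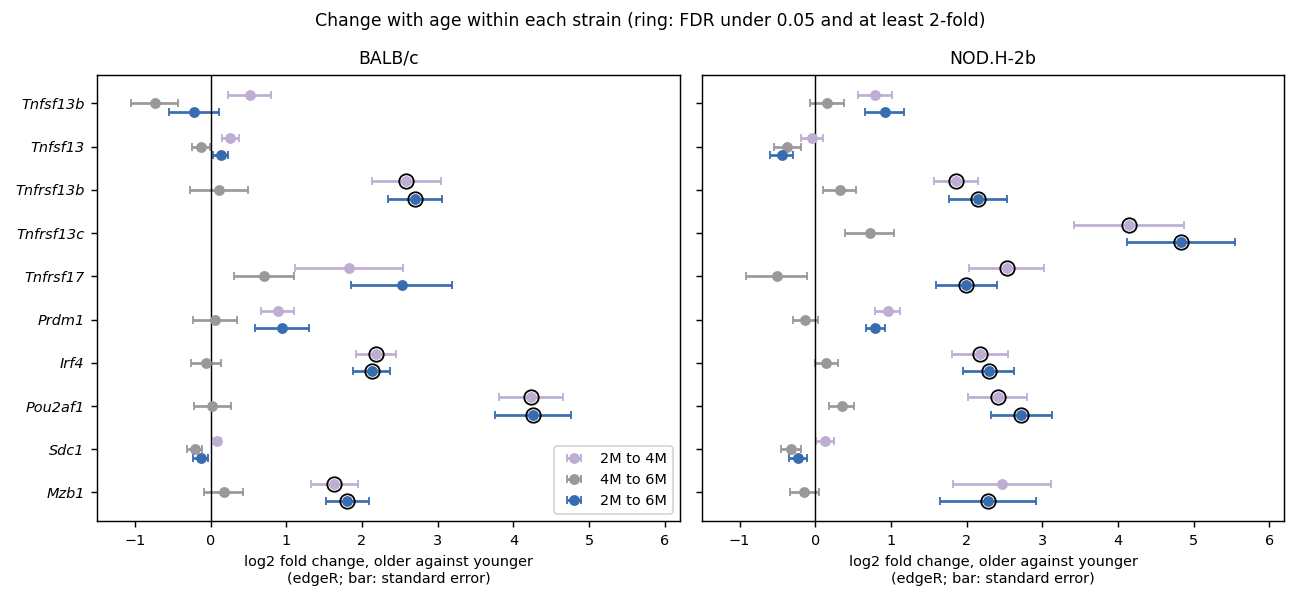
The log2 fold change of the older against the younger age is plotted for each gene and strain, with bars for the standard error and rings for DEGs, from groups of 3 mice. The 4M to 6M points carry no ring in either strain, and Tnfrsf13c has no BALB/c value because it failed the filter on low counts.

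Whether the strain difference itself changed with age was tested as strain by age in the 18-mouse fit. From 2M to 6M only Tnfsf13b passed, with a log2 difference of differences of 1.15 (SE 0.38, FDR 0.0462), where 3.60% of genes were called in that direction. This call was lost in 14 of the 18 fits that left out 1 mouse, and it was kept without NOD.H-2b 2M replicate 3, 4M replicate 1, 6M replicate 2 or 6M replicate 3. Pou2af1 gave -1.52 (SE 0.67, FDR 0.142) and Tnfsf13 -0.57 (SE 0.20, FDR 0.0625). From 2M to 4M no member passed by edgeR or DESeq2, against 0.361% of genes called higher and 0.330% lower, and Pou2af1 with -1.82 (SE 0.67, FDR 0.187) was the only one with an unadjusted p under 0.05, as 3153 of 19117 genes had.

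The pairs of genes were also compared within each gland, where the scaling of libraries matters little. The values were log2 ratios of CPM plus 0.1, averaged over ages, and the test of the Mzb1 and Tnfsf13 ratios was a two-sided exact permutation test with strain labels permuted within each age (8000 arrangements, n = 3 per group, p adjusted over 3 ratios). The ratio of the plasma cell receptor Tnfrsf17 to the B cell receptor Tnfrsf13c averaged 1.59 in BALB/c against -2.45 in NOD.H-2b, a difference of -4.04 that is given as a description with no test. At 2M the strains overlapped, with 0.252, 0.238 and 1.56 in BALB/c against 0.842, -1.11 and -1.69 in NOD.H-2b. In BALB/c the denominator was at or near 0, so that ratio is set by the added 0.1. The ratio of Mzb1 to Cd79a, a signalling chain of the B cell receptor, averaged 2.38 in BALB/c against -0.42 in NOD.H-2b, a difference of -2.80 (exact permutation p = 0.00025, adjusted p = 0.000375). Cd79a had 0 to 2 counts per mouse in BALB/c 2M, so the added 0.1 sets this ratio too at that age, and the p covers all ages together. At 4M and 6M, where Cd79a had 22 to 49 counts per BALB/c mouse, the BALB/c means were 2.00 and 2.20. With 1 CPM added in place of 0.1, the differences of the Tnfrsf17 to Tnfrsf13c and Mzb1 to Cd79a ratios were -2.14 and -1.61. The Mzb1 to Cd79a ratio lay between 1.72 and 3.47 in the 9 BALB/c mice and between -1.84 and 1.08 in the 9 NOD.H-2b mice. Its NOD.H-2b mean went from 0.792 ± 0.302 at 2M through -0.606 ± 0.205 to -1.45 ± 0.473 at 6M (SD, n = 3). The ratio of APRIL to BAFF transcripts (Tnfsf13 to Tnfsf13b) averaged 3.22 in BALB/c against 1.39 in NOD.H-2b, a difference of -1.82 (exact permutation p = 0.00025, adjusted p = 0.000375). With 1 CPM added the difference was -1.17. The value 0.00025 is the smallest this design can give. By age, the NOD.H-2b means of the APRIL to BAFF ratio were 2.10 ± 0.161, 1.28 ± 0.422 and 0.800 ± 0.658 from the youngest to the oldest group, where those of BALB/c were 3.16 ± 0.219, 2.95 ± 0.215 and 3.53 ± 0.397 (SD, n = 3).

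**Figure D4:**
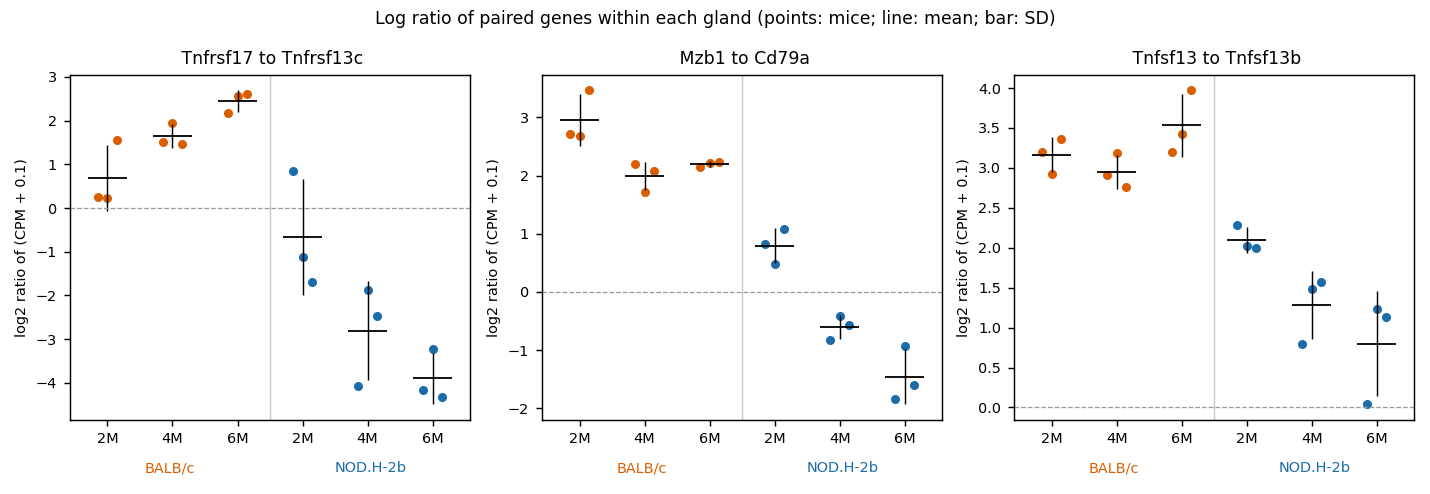
The log2 ratio of 2 genes in the same gland is plotted for 3 gene pairs, with 1 point per mouse, a line for the mean of 3 mice and a bar for the SD. For Mzb1 to Cd79a and Tnfsf13 to Tnfsf13b all NOD.H-2b mice lie below all BALB/c mice of any age, while Tnfrsf17 to Tnfrsf13c overlaps at 2M.

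Genes tied to BAFF and APRIL signalling were described with a list of 24, which also holds the ligand-processing protease Furin and the related ligand and receptor Tnfsf12 and Tnfrsf12a. In NOD.H-2b against BALB/c, 7 of 24 were DEGs at 2M, 9 at 4M and 10 at 6M, all higher, against 12.0%, 15.6% and 18.8% of all genes. Their median log2 fold change was 0.36, 0.41 and 0.60, where that of all genes was within 0.01 of 0. Whether any of the 24 passed the filter on low counts at 2M only through NOD.H-2b was not checked. Genes of the alternative NF-kB pathway are described for their role. Map3k14, which encodes its kinase NIK, was at 2.24, 1.97 and 1.96 CPM at 2M, 2.73, 2.80 and 3.94 at 4M, and 2.52, 3.22 and 2.13 at 6M in BALB/c. In NOD.H-2b it was at 8.32, 8.26 and 7.61 CPM at 2M, 14.5, 12.8 and 13.0 at 4M, and 17.1, 12.9 and 13.4 at 6M, above every BALB/c mouse. Its log2 fold change was 2.01 (SE 0.12, FDR 2.19e-07) at 2M, 2.09 (SE 0.16, FDR 1.07e-05) at 4M and 2.50 (SE 0.17, FDR 1.96e-06) at 6M. Nfkb2, the subunit that NIK signalling matures, had a BALB/c mean of 15.8 ± 0.887 CPM at 2M against a NOD.H-2b mean of 32.9 ± 2.89 CPM (SD, n = 3), with 1.10 (SE 0.08, FDR 1.01e-06) at 2M and 1.44 (SE 0.10, FDR 1.71e-06) at 6M. Traf3, the adaptor that marks NIK for degradation, differed little, with 0.41 (SE 0.07, FDR 0.00112) at 2M and 0.18 (SE 0.07, FDR 0.0636) at 6M. The largest values in the list, in the average over ages, were those of the NF-kB target and adaptor Traf1, with 4.28 (SE 0.26, FDR 5.93e-09), and the adaptor Traf5, with 2.36 (SE 0.24, FDR 6.24e-08). The lowest was that of the survival gene Bcl2l1, with -0.41 (SE 0.06, FDR 2.53e-06). Chuk, the kinase that NIK activates, had an averaged log2 fold change of -0.27 (SE 0.04, FDR 3.70e-06). Within strains, 1 of the 24 rose from 2M to 4M in BALB/c against 2.07% of all genes, 2 did so in NOD.H-2b against 5.97%, and 4 rose from 2M to 6M in NOD.H-2b against 10.9%.

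Other plasma cell genes were described with a list of 20. At each age 9 of the 20 were DEGs in NOD.H-2b, all higher, against 12.0%, 15.6% and 18.8% of all genes, and they were the same 9, namely Jchain, Igha, Ighm, Igkc, Slamf7, Ccr10, Cxcr4, Itga4 and Itgb7. Within BALB/c from 2M to 4M, 19 of the 20 passed the filter on low counts. The remaining gene thus passed it between strains at 2M and 4M through NOD.H-2b, which limits these counts. Some of the 19 may have passed within BALB/c through the 4M mice. Whether they passed between strains at 2M only through NOD.H-2b was not checked. A further 3, 5 and 7 of the 20 passed the FDR in the lower direction at 2M, 4M and 6M below 2-fold, and the medians of the list were 0.23, 0.39 and 0.44. In the average over ages the 7 that passed the FDR lower in NOD.H-2b were Xbp1, Eaf2, Fkbp11, Derl3, Txndc5, Sec11c and Edem1. Jchain, which joins IgA and IgM, was at 4.53, 9.91 and 12.3 CPM at 2M, 165, 125 and 231 at 4M, and 148, 278 and 156 at 6M in BALB/c. NOD.H-2b glands held 58.0, 156 and 116 CPM at 2M, 467, 686 and 485 at 4M, and 637, 652 and 527 at 6M. The strains did not overlap at any age, with log2 fold changes of 3.67 (SE 0.60, FDR 0.0111) at 2M, 1.66 (SE 0.28, FDR 0.00596) at 4M and 1.68 (SE 0.25, FDR 0.00109) at 6M. Within BALB/c it rose by 4.28 (SE 0.49, FDR 0.0153) from 2M to 4M, and Igha, the IgA heavy chain, by 4.39 (SE 0.51, FDR 0.0156). Ighm, the IgM heavy chain of B cells and early plasma cells, had the largest strain difference of the list in the average over ages, with 5.43 (SE 0.28, FDR 1.66e-09), followed by the homing receptor Cxcr4 with 3.90 (SE 0.40, FDR 1.45e-06). Xbp1, which drives endoplasmic reticulum capacity in plasma cells and in gland epithelium, overlapped between strains at 2M, with 366 to 383 CPM in BALB/c against 317 to 398 CPM in NOD.H-2b. It had a BALB/c mean of 370 ± 29.8 CPM at 6M against a NOD.H-2b mean of 288 ± 23.3 CPM (SD, n = 3). Derl3, of endoplasmic reticulum degradation, had the lowest averaged strain difference of the list, with -0.59 (SE 0.05, FDR 3.15e-09).

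Markers of other immune cells moved with the same comparison, and their part in these results was not tested. Within BALB/c from 2M to 4M, 9 of the 17 B cell and 2 of the 12 T cell markers passed the filter on low counts. Markers of these lists could thus pass it between strains through NOD.H-2b alone, so their levels are given and no count of calls. The B cell list summed to 75.6 ± 39.7, 127 ± 37.1 and 110 ± 60.5 CPM in the BALB/c groups from the youngest to the oldest, against 96.8 ± 14.6, 463 ± 152 and 646 ± 201 CPM in the NOD.H-2b groups (SD, n = 3). Its most abundant gene was Bcl6, which other cells express, at 41.9 to 94.7 CPM in the means of all groups but NOD.H-2b 6M, where Bank1 led with 69.3 CPM. The T cell list summed to 0.679 ± 0.201, 3.28 ± 3.13 and 1.94 ± 0.367 CPM in the BALB/c groups, against 23.5 ± 13.3, 99.7 ± 34.8 and 109 ± 18.0 CPM in the NOD.H-2b groups, led by Lck in BALB/c 2M and 4M and by Cd4 in the others. Of 12 myeloid markers, 10 were tested between strains, as they were within BALB/c, and 9, 8 and 9 were higher at 2M, 4M and 6M, against 12.0%, 15.6% and 18.8% of all genes. Within BALB/c some markers may have passed the filter through the older mice, so at 2M they may have passed it through NOD.H-2b alone. The myeloid sum was 49.4 ± 8.31 CPM in BALB/c 2M and 335 ± 47.5 in NOD.H-2b 6M, led by Lyz2. Over the mice of each BALB/c group it ran from 39.9 to 55.4, 66.7 to 122 and 63.6 to 81.8 CPM from the youngest to the oldest. In NOD.H-2b it ran from 173 to 198, 297 to 316 and 303 to 390 CPM. The markers Spib, S100a8, S100a9, Cd28 and Icos were at 0 in BALB/c 2M. The plasma cell list of 10 genes, which holds 5 of the members and was led by Xbp1 in BALB/c and NOD.H-2b 2M and by Jchain in NOD.H-2b 4M and 6M, summed to 621 ± 10.1, 772 ± 53.8 and 799 ± 61.1 CPM in the BALB/c groups from the youngest to the oldest, against 664 ± 56.4, 1077 ± 138 and 1092 ± 54.6 CPM in the NOD.H-2b groups. The epithelial list, led by Krt18 and Krt8, summed to 877 ± 17.0, 963 ± 36.5 and 915 ± 28.1 CPM in the BALB/c groups from the youngest to the oldest, against 1034 ± 70.0, 797 ± 120 and 687 ± 59.7 CPM in the NOD.H-2b groups (SD, n = 3). The fibroblast list, led by Col3a1, summed to 573 ± 78.8, 458 ± 97.6 and 374 ± 46.4 CPM in the BALB/c groups, against 758 ± 43.9, 355 ± 32.1 and 356 ± 40.2 CPM in the NOD.H-2b groups. The lacrimal gland list of 5 secretory genes overlapped between strains at 4M. It ran over mice from 71627 to 75605 CPM in BALB/c 2M against 61189 to 64690.5 in NOD.H-2b 2M. At 6M it ran from 72404.5 to 84974 against 45134 to 55401. In the average over ages its Car6 differed by -3.15 and its Scgb2b17 by 2.36.

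**Figure D5:**
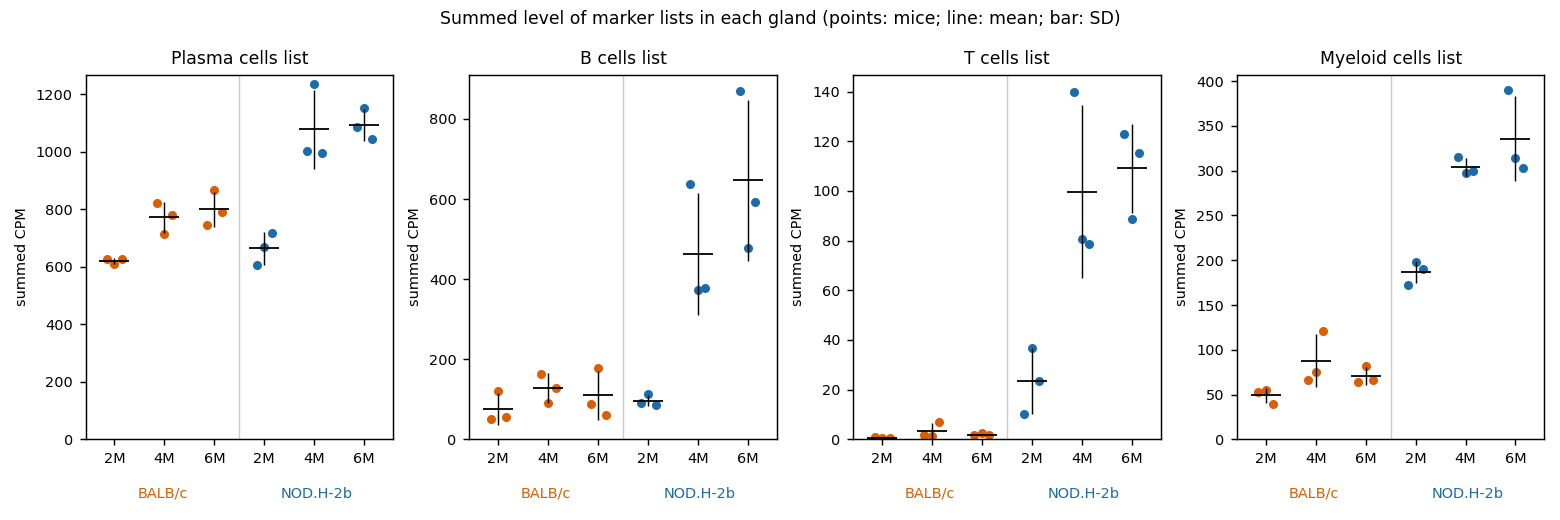
The summed CPM of the plasma cell, B cell, T cell and myeloid marker lists is plotted with 1 point per mouse, a line for the mean of 3 mice and a bar for the SD. The T cell sum is at most 6.89 CPM in the BALB/c mice and at least 10.2 CPM in the NOD.H-2b mice, and the plasma cell sums of BALB/c 4M, from 715 CPM up, reach into the range of NOD.H-2b 2M, which ends at 718 CPM.

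The genes whose log2 CPM was most like each member over the 18 mice were ranked by Pearson r among the 11879 genes whose mean log2 CPM reached 1, and since the mice share strain and age, r is a description. Tnfrsf13c was most like the B cell genes Bank1 (r = 0.996) and Cxcr5 (0.996), with Cacna1i between them (0.996), and r of the deviations from the group means was 0.934, 0.961 and 0.947. Pou2af1 was most like the antibody genes Igkc (0.991), Ighj2 (0.986) and Ighv9-3 (0.986), and Tnfrsf17 like Ighv1-85 (0.918), Ighv8-8 (0.915) and Igkv9-124 (0.901), where r of the deviations was 0.522, 0.574 and 0.202 for Tnfrsf17. For the genes named for the other 9 members r of the deviations lay between 0.651 and 0.961. Mzb1 was most like Cacna1e (0.971), Cd79a (0.962) and Lax1 (0.958), and Irf4 like Cacna1h (0.989), Lax1 (0.986) and Igkj5 (0.984). Tnfrsf13b was most like Glipr1 (0.991), Cyfip2 (0.988) and Ighg2b (0.987). Tnfsf13b was most like Cd72 (0.981), a B cell surface protein, Nuak2 (0.978) and Ttyh3 (0.976). Prdm1 was most like Nudt16 (0.939), Pcnt (0.937) and Prnp (0.933). Tnfsf13 was most like Lamp1 (0.883), R3hcc1 (0.868) and Cttn (0.858), and Sdc1 like Man2c1 (0.893), Tbcd (0.810) and Krt80 (0.773). Genes of antibody segments share near-identical copies, and their counts are uncertain.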

How the data were processed

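Bulk RNA-seq was measured in the LGs of 18 male mice, in groups set by strain and age. The submitters' processing notes name cutadapt, FastQC, STAR, HTSeq and DESeq2 and the build GRCm38. The authors deposited raw counts per gene, the values used here, and a table of DESeq2-normalized counts that was not used here. Versions, the annotation release and the strand setting are not given in the sources used here. Of 54232 genes, 21452 had no count in any mouse. The totals of 49480781 to 103936830 counts per mouse limit precision for genes of a few counts. Replicates of a group differed by more than counting noise, so none was merged, and each came from another mouse.

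The count test was edgeR's quasi-likelihood test (edgeR 4.0.16, limma 3.58.1, R 4.3.3) with TMM factors and filterByExpr, on the 6 mice of a pair of groups, or on all 18 mice for the averaged strain difference and strain by age, with Benjamini-Hochberg adjustment over all genes tested. The SE is the log2 fold change divided by the square root of F. CPM are counts per 1000000 of the TMM-scaled library. Ratios were tested in Python 3.11.15 (numpy 2.4.6, pandas 2.3.3). DESeq2 1.42.0, DESeq2 size factors, no filter, a replicate block, 1 fit of all mice and leaving out each mouse were the alternatives, and scaling by total counts without TMM was added after seeing the data. On simulated data for the 2M strain comparison (17021 genes), 98.5% of 200 genes changed 4-fold were recovered and 0.505% of calls were wrong. The members and the lists were chosen with earlier results of these data known. From the signalling and plasma cell lists, the genes with the highest and lowest averaged strain difference were named, with others chosen for their role. Of the 54232 gene identifiers, 54165 matched GENCODE M21.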

Additional observations from a re-analysis of the deposited data

Results flagged for a closer look

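For 10 genes, among the 10 members and the lists of 24 signalling and 20 other plasma cell genes, the change of the strain difference between 2M and 6M was called in edgeR's test of strain by age on 18 mice, which flagged them. Of all 19117 genes tested, 689 were called in the higher direction and 287 in the lower. BAFF, Tnfsf13b, was 1 of these, with a log2 difference of differences of 1.15 (SE 0.38, FDR 0.0462), a call lost in 14 of the 18 fits that left out 1 mouse, and so were 4 genes of the signalling list in the same direction. Traf5, an adaptor of TNF receptors, gave 1.85 (SE 0.61, FDR 0.0467), the NF-kB subunit Rel gave 1.04 (SE 0.23, FDR 0.00854), the survival kinase Pim2 gave 1.29 (SE 0.35, FDR 0.0199) and the survival gene Bcl2 gave 1.48 (SE 0.33, FDR 0.00937). Cd38, a surface enzyme of plasma cells and other leukocytes, gave 1.36 (SE 0.43, FDR 0.0467). Of the 18 fits that left out 1 mouse, the call was lost in 12 for Traf5, 9 for Rel, 4 for Pim2, 0 for Bcl2 and 13 for Cd38. With the replicate block the calls of Tnfsf13b (FDR 0.0510) and Traf5 were lost.

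From the list of 20 plasma cell genes, which also holds Cd38, 4 were flagged in the other direction, with a strain difference smaller at 6M than at 2M, and 15 were not called. Jchain gave -1.98 (SE 0.59, FDR 0.0394), the heavy chain Igha gave -2.16 (SE 0.60, FDR 0.0299), the light chain Igkc gave -1.92 (SE 0.56, FDR 0.0362) and the homing receptor Ccr10 gave -2.82 (SE 0.88, FDR 0.0373). Leaving out 1 mouse lost the call in 8, 7, 8 and 8 of the 18 fits in that order, and without the TMM factors those of Jchain, Igkc and Ccr10 were lost. Without the filter on low counts the calls of Jchain, Igha, Igkc and Cd38 were lost. The BALB/c means of Igha were 33.2 ± 13.9 CPM at 2M and 660 ± 191 CPM at 6M (SD, n = 3), and those of NOD.H-2b were 496 ± 208 and 2211 ± 256 CPM.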

How the results depend on the processing

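Among the values of single genes, 1015 kept their direction and side of the threshold under the alternatives, 36 became calls, 47 ceased to be calls and 5 reversed, all 5 of values that were not called. Sdc1 at 6M ran from -0.0626 to 0.164 with 1 mouse left out, Tnfsf13 from 2M to 4M in NOD.H-2b from -0.170 to 0.0507, and the averaged strain difference of Tnfsf13 was 0.0791 without TMM. Of the members, 5 were called from 2M to 4M in NOD.H-2b, and this count was 2 without the filter on low counts, 1 with the replicate block and 1 to 6 with 1 mouse left out. The replicate block also gave 3 called members from 2M to 6M in NOD.H-2b and 0 for strain by age from 2M to 6M, where leaving out 1 mouse gave 0 to 1. With the block Mzb1 (FDR 0.00735) and Prdm1 (FDR 0.00281) were called at 2M, and Mzb1 was not called from 2M to 6M in NOD.H-2b (FDR 0.0833). Tnfrsf17 was called from 2M to 6M in BALB/c (FDR 0.0394), where it passed the filter only with the 6M mice. At 2M the strain comparison gave 4 to 7 called members with 1 mouse left out, where the 7 include Tnfrsf13c, at 0 in BALB/c. The causes were not tested.

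Replicate numbers were treated as names here, since they are not stated to pair mice. In no comparison did every same-numbered pair have a correlation of deviations over 0.1 (range -0.47 to 0.48). From 4M to 6M in NOD.H-2b the values were 0.484, 0.244 and 0.0880, and 3 pairs cannot decide whether same-numbered mice shared a factor. The replicate block took all DEGs of NOD.H-2b from 2M to 4M from 1061 higher and 111 lower to 135 and 22. From 4M to 6M it took them from 1 and 0 to 38 and 16. Without the filter on low counts, all DEGs of BALB/c went from 345 higher and 50 lower to 577 and 86 from 2M to 4M, from 260 and 19 to 441 and 44 from 2M to 6M, and from 3 and 3 to 61 and 45 from 4M to 6M. Without it, the 4M to 6M DEGs of NOD.H-2b were 8 and 8, with DESeq2's test 28 and 26, and with 1 fit of all mice 27 and 28. With 1 mouse left out they ran from 0 and 0 to 62 and 35, the latter without NOD.H-2b 4M replicate 1. Those of BALB/c from 4M to 6M ran from 0 and 2 to 22 and 5, the latter without BALB/c 6M replicate 3. DESeq2's test gave 21 and 11 in BALB/c from 4M to 6M, where 1 fit of all mice gave 10 and 3, and 209 and 152 for strain by age from 2M to 4M against 69 and 63. Without TMM, the strain DEGs at 6M were 4442 higher and 600 lower against 3338 and 1071, and those of strain by age were 40 and 94 from 2M to 4M and 887 and 158 against 689 and 287 from 2M to 6M. The ratios with a pseudocount of 1 CPM differed by -2.14, -1.61 and -1.17 in the order given, and for Mzb1 to Cd79a and Tnfsf13 to Tnfsf13b the replicate block gave an exact permutation p of 0.0039 each.

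Low counts limit Tnfrsf13c in BALB/c and Tnfrsf17 in both strains, and 3 mice a group limit all tests.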
